A study of Bos taurus with 2 samples.

Results

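The homeobox genes of this study are those whose array probes carry the word homeobox or homeodomain in their description, or a gene name that begins with HOXA, HOXB, HOXC or HOXD. That rule found 382 of the 51280 probes, which stand for 207 of 31638 gene names. The HOX clusters account for 70 of the probes and 37 genes, and the other homeobox genes for 312 probes and 170 genes. Of the 39 cluster genes in the reference table, HOXB5 and HOXD1 had no such probe. The rule also took in a few names that are not homeobox transcription factors, such as the homeodomain-interacting kinases (HIPK) and PBXIP1, a protein that binds PBX factors, which are described apart below.

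The comparison was of 2 RNA samples, each on 1 bovine oligonucleotide array with 60-base probes and 1 dye (Cy3). The first was total RNA of spermatozoa from high-fertile bulls and the second that of low-fertile bulls, in both cases HF crossbred breeding bulls, male, with no treatment, age or number of bulls given. Whether an array held the RNA of a single bull or of several is also not stated. With 1 array per fertility group nothing could be tested, and a difference between the arrays cannot be told apart from a difference between the bulls, extractions or hybridisations behind them.

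A homeobox gene encodes a transcription factor that binds DNA through a helix-turn-helix fold, the homeodomain. The HOX genes lie in 4 clusters, HOXA to HOXD, where the order of the genes along the chromosome follows the order of their expression along the body axis of the embryo. Polycomb proteins keep HOX genes silent in cells where they are not used, while Trithorax proteins and retinoic acid favour their expression. The other classes (PRD, NKL, LIM, POU, SINE, TALE and more) pattern brain, limb, gut and germ line, and TALE proteins such as PBX and MEIS bind DNA together with HOX proteins. Mature spermatozoa have a condensed nucleus with hardly any transcription, so their RNA is largely left over from earlier stages of sperm formation.

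The probes that the results turn on are shown first, since their base composition differed widely and the difference over all measured probes had a trend on base composition. The probes shown did not always follow that trend. In each sequence, taken from the scanner tables and read 5′ to 3′, capitals mark G and C and lower case marks A and T. The positions are those of the array design on build HGSC Btau_3.1, and probes without a position had none in the scanner tables.

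The 3 probes of PHOX2A, a PRD-class factor of autonomic neurons, are shown because 2 of them differed by 2-fold and 1 did not. The first lies at chr15:51341334-51341393 and the third at chr15:51342703-51342762, both on the minus strand, and the second has no position.
PHOX2A probe 1: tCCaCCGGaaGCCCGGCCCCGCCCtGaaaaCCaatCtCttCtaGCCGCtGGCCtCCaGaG
PHOX2A probe 2: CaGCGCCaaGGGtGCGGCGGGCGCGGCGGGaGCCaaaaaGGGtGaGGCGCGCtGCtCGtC
PHOX2A probe 3: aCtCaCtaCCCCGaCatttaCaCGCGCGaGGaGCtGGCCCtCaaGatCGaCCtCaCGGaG

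The probes of DLX5 (chr4:14663702-14663761, minus strand) and TGIF2 (chr13:66266420-66266479, plus strand) are those of the genes that passed 2-fold on both arrays. HOXA2 (chr4:71673837-71673896, plus strand) and LOC510844 (chr18:37421841-37421900, plus strand) had the lowest differences.
DLX5: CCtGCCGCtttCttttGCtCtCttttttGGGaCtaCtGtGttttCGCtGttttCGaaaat
TGIF2: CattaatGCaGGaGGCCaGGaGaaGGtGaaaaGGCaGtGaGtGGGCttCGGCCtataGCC
HOXA2: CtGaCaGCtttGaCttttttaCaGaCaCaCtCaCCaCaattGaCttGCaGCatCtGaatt
LOC510844: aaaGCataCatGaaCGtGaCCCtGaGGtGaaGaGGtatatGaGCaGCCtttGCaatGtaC

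HOXA4 (chr4:71646696-71646755, plus strand) is shown as the probe with the widest gap between the arrays, and HOXD12 (no position) as the measured HOX probe richest in G and C. The probes of HOXA6 lie at chr4:71629701-71629757 (probe 1) and chr4:71629522-71629581 (probe 2), both on the plus strand, and did not give the same difference.
HOXA4: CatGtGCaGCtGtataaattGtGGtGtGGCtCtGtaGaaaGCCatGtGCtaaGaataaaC
HOXD12: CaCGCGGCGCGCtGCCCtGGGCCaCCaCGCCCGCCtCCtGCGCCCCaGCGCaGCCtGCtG
HOXA6 probe 1: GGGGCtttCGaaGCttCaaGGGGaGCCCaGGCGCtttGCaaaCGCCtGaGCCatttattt
HOXA6 probe 2: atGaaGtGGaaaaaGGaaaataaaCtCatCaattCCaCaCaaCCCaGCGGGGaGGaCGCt

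The 3 probes of LBX1, an NKL-class factor of migrating muscle precursors, run from 45% to 86.7% G and C within 1 gene. Probes 2 and 3 lie at chr26:22331729-22331788 and chr26:22331129-22331188 on the minus strand, and the last bases of probe 1 are the first of probe 3.
LBX1 probe 1: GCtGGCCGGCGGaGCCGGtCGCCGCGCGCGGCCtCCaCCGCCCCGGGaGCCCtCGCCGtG
LBX1 probe 2: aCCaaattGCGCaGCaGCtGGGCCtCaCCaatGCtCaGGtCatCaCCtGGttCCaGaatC
LBX1 probe 3: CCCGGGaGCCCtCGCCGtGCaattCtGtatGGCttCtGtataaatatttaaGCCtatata

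Homeobox RNA was measured for 47.8% of the genes, and few of those differed by 2-fold. A gene was counted as measured where at least 1 of its probes was well above background, the scanner software's own call, in every spot on both arrays. This held for 99 of the 207 genes, beside 11589 of all 31638 gene names. A further 11 genes passed on the high-fertile array with no spot above background on the other, and 9 did so on the low-fertile one. In 10 genes repeat spots of a probe were called differently on an array, and 78 had no spot above background. Signals are given as the scanner software's processed signal, in linear units. The low-fertile array was brighter in general, so each signal was divided by its array's 75th percentile over the probes measured on both (148.6 for the high-fertile array, 186.3 for the low-fertile one), and the log2 difference, high-fertile minus low-fertile, was taken after that step. HOXC4, for instance, had nearly equal processed signals on the arrays (96.9 for high-fertile, 96.2 for low-fertile) and a difference of 0.34.

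A difference of 2-fold or more was found for 2 of the 99 genes on the higher side (high-fertile above low-fertile) and for 0 on the lower side. Among all 11589 genes measured on both arrays these shares were 1.88% higher and 2.44% lower, so 2 of 99 is close to the background and 0 of 99 lies below it. Both genes higher by 2-fold rested on a single probe. TGIF2, a TALE-class repressor that acts in TGF-beta signalling, had processed signals of 125.7 and 108.9 in its spots on the high-fertile array, against 71.3 and 63.4 on the low-fertile array, a log2 difference of 1.13 (2.18-fold). The 3 other probes of TGIF2 did not reach that level of signal on either array. DLX5, an NKL-class factor of bone and branchial arches, had 1 spot, with 509.1 on the high-fertile array against 302.8 on the low-fertile one, a difference of 1.08 (2.11-fold). With normexp background correction both genes were under 2-fold (0.65 for TGIF2 and 0.88 for DLX5), as they were with spike-in scaling (0.53 and 0.48). DLX5 was also under 2-fold with quantile normalization (0.94), and TGIF2 was at -0.11 when dim probes were kept and was not measured under a stricter filter.

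The probes of PHOX2A disagreed. Its probe with 65% G and C had 2349 on the high-fertile array against 1435 on the low-fertile one (difference 1.04), and that with 75% had 382 (high-fertile) and 232 (low-fertile), a difference of 1.04. The probe with 60% G and C had 30.4 on the high-fertile array against 36.1 on the low-fertile one, a difference of 0.08. The gene's mean therefore stayed under 2-fold. Next in size on the higher side came SHOX2 and SIX6. SHOX2, a PRD-class factor of limb and sinoatrial node, had 299.6 on the high-fertile array against 196.0 on the low-fertile one (0.94). Its other probe was not above background on either array. SIX6, a SINE-class factor of the eye, had 664.3 (high-fertile) and 456.1 (low-fertile), a difference of 0.87. The other probe of SIX6 was above background on the low-fertile array only and went the other way (-0.77). When dim probes were kept, SHOX2 was at 0.17 and SIX6 at 0.05.

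On the lower side LOC510844 stood farthest from 0 among the measured genes. The array describes its probes as LMX1B-like, whereas the reference table gives ZFHX3 for the same gene ID, so its identity is uncertain and it is called by its ID and counted with the zinc finger class. Its measured probes carry the same 60 bases and are a technical repeat of each other. One probe had 81.2 on the high-fertile array against 194.1 on the low-fertile one, the other 79.3 (high-fertile) and 192.8 (low-fertile), and the gene's difference was -0.94. The difference of the other measured genes lay between this value and that of TGIF2, and 75 of the 99 lay within 0.5 of 0.

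As a group the homeobox genes were shifted slightly towards the high-fertile array, with a median difference of 0.14 over 99 genes against -0.00 over all measured genes, a shift that reads -0.46 against -0.60 with scaling on the spike-in probes and -0.00 against -0.12 when dim probes were kept. Higher differences were found for 63 of the 99 (63.6%), against 49.9% of all measured genes. After the trend on probe base composition was subtracted the median was 0.07 and 55 of 99 were higher. The SD between the 2 spots of a probe was 0.26 over 42 homeobox probes and that between probes of a homeobox gene 0.35 over 23 genes, which is the error of single values and not of the median. Of the 23 genes with several measured probes 8 had probes of both signs, and 45 of the 99 genes rested on 1 spot. No value here carries a replicate error.

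**Figure D1:**
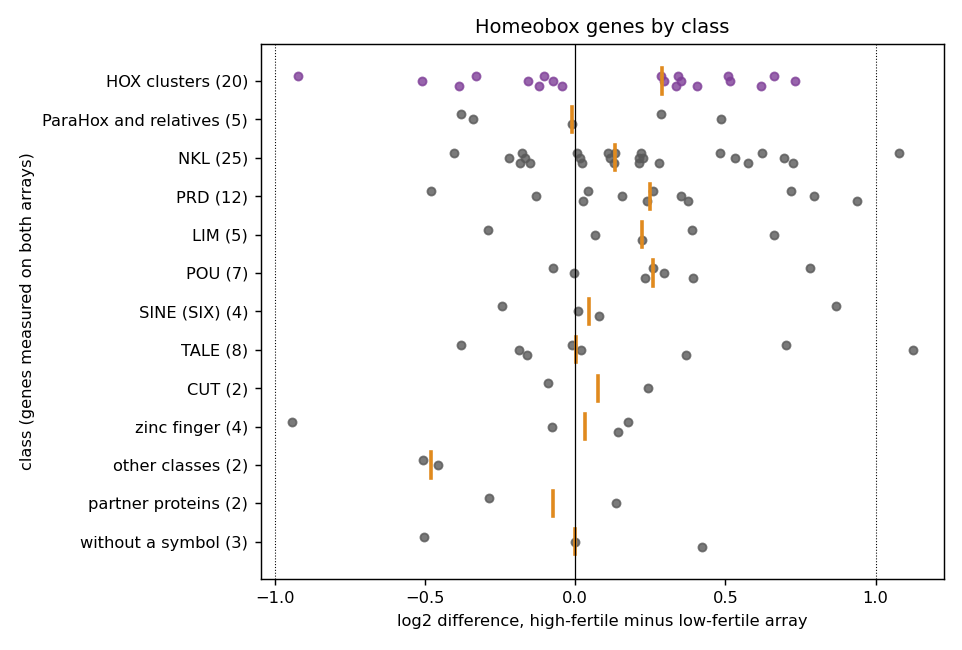
Log2 difference (x axis, high-fertile minus low-fertile array) of each homeobox gene measured on both arrays, by class (y axis, number of genes in brackets). Each point is 1 gene, orange bars are class medians, and dotted lines mark 2-fold; 2 genes lie past the right line and 0 past the left, and with spike-in scaling all points would lie 0.60 further to the left.

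The HOX clusters were represented by 20 of 37 genes (54.1%), against 79 of 170 (46.5%) for the other homeobox genes and 11589 of 31638 for all genes. Counted by probe, the measured shares of HOX and other homeobox genes were 32.9% and 32.4%. None of the 20 differed by 2-fold. The cluster genes had 11 higher and 9 lower members and a median of 0.29, against 0.13 for the other homeobox genes (52 higher, 27 lower), where spike-in scaling gave -0.31 and -0.46. The gap between these medians was 0.16 and shrank to 0.06 once the base composition trend was subtracted (0.12 for HOX and 0.06 for the others). The HOX values fell into a lower and an upper group, with no gene between HOXB9 (-0.04) and HOXD9 (0.29), so that their median sat at the lower edge of the upper group.

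Within the HOXA cluster 2 of 5 measured genes were higher. HOXA2, which patterns the hindbrain and the second branchial arch, had 106.9 on the high-fertile array against 253.9 on the low-fertile one (-0.92, or 1.89-fold lower), and its other probe was not well above background. HOXA6 had 125.9 on the high-fertile array against 86.5 on the low-fertile one at the probe with 55% G and C (0.87), and 37.8 (high-fertile) and 42.8 (low-fertile) at the one with 45% (0.15). The difference was 0.41 for HOXA7 and -0.39 for HOXA11, a gene of the limb and the reproductive tract. HOXA11 was dim, with 26.7 on the high-fertile array against 43.8 on the low-fertile one. With normexp background correction HOXA7 was at 0.24 and HOXA11 at -0.07.

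HOXB had 2 of 5 genes higher, HOXB2 with 172.9 on the high-fertile array against 151.9 on the low-fertile one (0.51) and HOXB4, a gene of blood stem cells, with differences of 0.40 and 0.28 at probes that overlap by 27 bases. HOXB9 (-0.04), HOXB13 (-0.12), a gene of the prostate and tail, and HOXB7 (-0.16) lay close to 0. In HOXC 3 of 5 were higher. HOXC11 had 165.7 on the high-fertile array against 131.4 on the low-fertile one (0.66), and HOXC6 had 332.0 (high-fertile) and 270.9 (low-fertile), a difference of 0.62. HOXC4 (0.34), described above, was the third. The lower ones were HOXC10 (-0.33) and HOXC13, a regulator of hair keratins, with 100.1 (high-fertile) and 178.6 (low-fertile), a difference of -0.51. Each of these 5 genes was measured at a single probe, and the other probes of HOXC11 and HOXC6 were not above background on either array. When dim probes were kept, HOXC11 was at 0.23, HOXC6 at 0.04, HOXC4 at 0.37, HOXC10 at 0.05 and HOXC13 at -0.11.

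Within HOXD 4 of 5 genes were higher and 1 lower. HOXD12, a limb gene, had 691.1 on the high-fertile array against 522.4 on the low-fertile one (0.73). Its probe has 81.7% G and C, and with the trend subtracted the difference was 0.21, while its other probe, with 55%, was not above background. The array describes the measured probe as HOXD11-like, and its assignment to HOXD12 rests on its accession, so its identity is uncertain. HOXD4 (0.35), HOXD3 (0.30) and HOXD9 (0.29) differed by similar amounts, and HOXD11 by -0.11. The cluster medians were -0.07 for HOXA, -0.04 for HOXB, 0.34 for HOXC and 0.30 for HOXD, with 5 genes each, and all were below 0 with spike-in scaling, which lowers every value by 0.60. By position in the clusters, 2 of 4 genes in groups 1 to 3, 6 of 7 in groups 4 to 8 and 3 of 9 in groups 9 to 13 were higher.

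**Figure D2:**
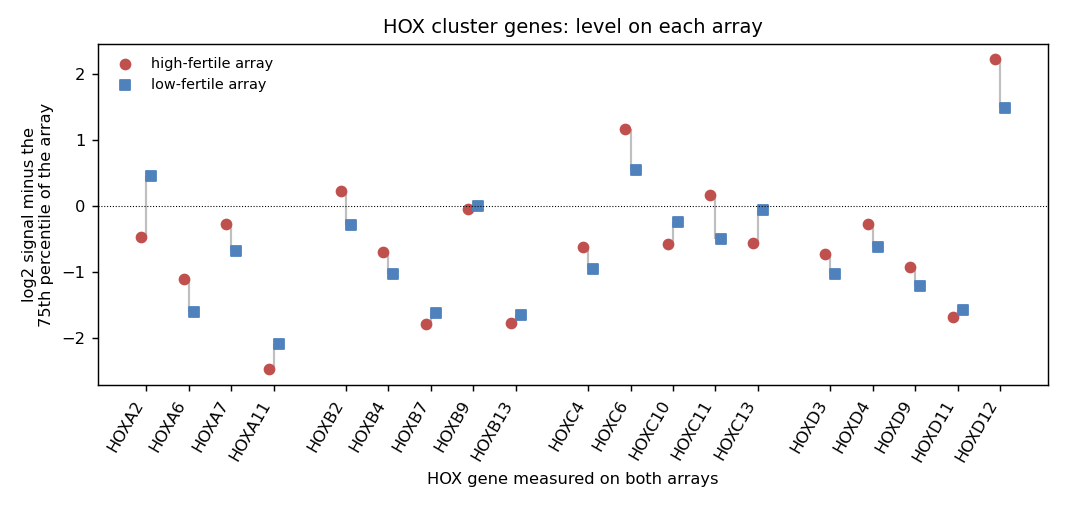
Level of 19 of the 20 HOX genes measured on both arrays, as log2 processed signal minus the array's 75th percentile (y axis), by gene along each cluster (x axis), with the high-fertile array as circles and the low-fertile array as squares. The widest gap is that of HOXA2, lower on the high-fertile array, and heights of different genes are not comparable because each has its own probe.

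Among the HOX genes without a value on both arrays, HOXA4 had the widest gap. Its only spot, dim on the high-fertile array at 18.0, had 1129 on the low-fertile one, at least 39.9-fold lower on the high-fertile array. Of 23 spots around it 17 were also at least 2-fold lower on the high-fertile array, and it was the only one of 492 homeobox spots that lay in such a patch, so its value cannot be told apart from its position. HOXA3, HOXB3 and HOXC9 passed on the high-fertile array only, at bounds of at least 1.02-fold, 1.22-fold and 1.30-fold. HOXB1 had both spots above background on the high-fertile array and 1 of 2 on the low-fertile one, and HOXA9 and HOXD8 each had a single such spot. HOXA5, HOXA10, HOXA13, HOXB6, HOXB8, HOXC5, HOXC8, HOXC12, HOXD10 and HOXD13 had none on either array, and for these no level can be stated.

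The NKL class, the largest, had 25 of 43 genes measured, and 19 were higher (median 0.13, which is below 0 when scaled on spike-ins). After the base composition trend was subtracted 13 of the 25 were higher (median 0.08). Besides DLX5 the distal-less genes had differences of 0.58 for DLX2, 0.21 for DLX1, 0.13 for DLX6 and 0.01 for DLX3. DLX1 was measured by a probe with 64.5 on the high-fertile array against 46.3 on the low-fertile one (0.81) and by another with 124.0 (high-fertile) and 202.3 (low-fertile), a difference of -0.38. These probes lie at chr2:25304171-25304230 and chr2:25300751-25300810 on the minus strand. DLX6 likewise had probes of both signs (0.55 and -0.30). EMX2, a gene of the forebrain and the urogenital tract, was measured at 2 of its 5 probes. It had 86.5 on the high-fertile array against 61.8 on the low-fertile one at one measured probe (0.81). The other measured probe had 593.8 (high-fertile) and 479.4 (low-fertile), a difference of 0.64. The remaining probes of EMX2 were not above background on either array. MSX2 had 1447 on the high-fertile array against 1181 on the low-fertile one (0.62). The lowest was NKX6-1, a factor of pancreatic beta cells, at -0.40. Its signals were dim, 30.1 on the high-fertile array against 49.9 on the low-fertile one, and its difference was 0.00 with normexp background correction. NANOG, a pluripotency factor, passed on the high-fertile array only, at least 1.41-fold, and HHEX on neither.

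In the PRD class 12 of 35 genes were measured, 10 of them higher (median 0.25, which is below 0 when scaled on spike-ins) and 8 of 12 higher with the trend subtracted. GSC2 had spots of 104.0 and 126.6 on the high-fertile array and of 59.8 and 115.1 on the low-fertile array, a difference of 0.80. OTX1, a gene of the forebrain, differed by 0.04, and CRX, the photoreceptor factor, by -0.48. The spots of CRX disagreed, with 33.3 and 68.8 on the high-fertile against 89.96 and 78.1 on the low-fertile array. NOBOX, an oocyte factor, passed on the high-fertile array only (at least 1.42-fold), and the X-linked ESX1, which in mouse is expressed in testis and placenta, on neither.

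Of 12 POU genes 7 were measured, 5 of them higher, led by POU3F1, a factor of Schwann cells and of spermatogonial progenitors in mouse, with 63.4 on the high-fertile array against 46.3 on the low-fertile one (0.78). The pluripotency factor POU5F1 differed by -0.00, and POU2F1 by 0.67 and -0.08 at its probes. Among LIM genes 5 of 12 were measured and 4 were higher. LHX1, a factor of the kidney and head organizer, had 497.4 on the high-fertile array against 394.1 on the low-fertile one (0.66), LHX9, a gene of the embryonic gonad, 107.7 (high-fertile) and 103.2 (low-fertile), a difference of 0.39, LHX2 differed by 0.07 and LHX4 by -0.29. All 4 SINE-class genes with a probe were measured, of which only SIX6 differed by over 0.5, while SIX3 differed by 0.01, SIX5 by 0.08 and SIX2, a gene of kidney progenitors, by -0.24. With the trend subtracted 5 of 7 POU, 4 of 5 LIM and 1 of 4 SINE genes were higher. With spike-in scaling the median of each of these classes was below 0.

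The TALE class, which holds the partners of HOX proteins, had 8 of 19 genes measured, 4 of them higher and 4 lower (median 0.00; 3 of 8 higher with the trend subtracted). Besides TGIF2, IRX3 had 616.2 on the high-fertile array against 474.7 on the low-fertile one (0.70). The HOX cofactors PBX2 and PBX4 differed by -0.19 and 0.37, and MEIS2 by -0.38, with -0.12 and -0.64 at its probes. MKX, a tendon factor, passed on the low-fertile array only, with a processed signal of 8.66 on the high-fertile array against 66.3 on the low-fertile one, at least 2.34-fold lower on the high-fertile array. That bound rested on 1 spot, and the other probes of MKX had no spot above background on either array. MEIS1, PKNOX1, TGIF1 and TGIF2LX, expressed in testis in human, had no spot above background. Bounds of 2-fold were thus reached by 0 of the 11 genes seen on the high-fertile array only and by 2 of the 9 seen on the low-fertile array only, HOXA4 and MKX. Over all genes of these kinds the shares were 7.34% and 17.8%. These counts leave out single probes of genes that were measured at another probe. Such a probe of IRX5 had 63.3 on the high-fertile array against 7.55 on the low-fertile one, where it was not above background. The measured probe of IRX5 differed by -0.01.

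The remaining classes had few measured members. In the ParaHox class and its relatives 2 of 5 were higher, GBX2 (0.49) the most so, and MNX1, a motor neuron factor, was the lowest (-0.38). With normexp background correction GBX2 was at 0.20 and MNX1 at -0.07. The CUT genes CUX2 and SATB1 differed by 0.24 and -0.09, and CUX1 passed on the high-fertile array only (at least 1.29-fold). Of the zinc finger homeobox genes ADNP2 differed by 0.18, ADNP passed on the low-fertile array only (at least 1.43-fold lower on the high-fertile array), ZEB1 had 1 spot above background and ZEB2 none. HMBOX1, which binds telomeres, had 131.8 on the high-fertile array against 234.9 on the low-fertile one (-0.51), and PROX1 was not measured. Among partner proteins HIPK4, a kinase known from mouse testis, differed by 0.14. PBXIP1 was measured at 2 of its 5 probes, with 6433 and 4228 on the high-fertile array against 10823 and 5879 on the low-fertile array (-0.29). The measured probes of PBXIP1 overlap by 34 bases. Its difference was 0.01 when dim probes were kept and -0.70 with quantile normalization.

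Probe base composition moved together with both readouts of homeobox genes. Of their probes 42.1% had at least 50% G and C (32.9% of HOX and 44.2% of the other homeobox probes), against 23.3% of all probes. The share of probes measured on both arrays was 32.9% for HOX (23 of 70, exact 95% binomial interval 22.1 to 45.1) and 32.4% for the other homeobox genes (101 of 312, 27.2 to 37.9), against 27.6% of all probes. The intervals cover counting error only, and probes of one gene are not independent. If the probes had been measured at the rate of all probes within their own 10-point bin of base composition, 30.9% of HOX and 34.5% of the other probes would have passed, and both of these values lie within the intervals. Within the bin of 50 to 60% G and C the shares were 52.9% for HOX (9 of 17) and 39.5% for the others (34 of 86), beside 47.9% of all probes. In the bin of 40 to 50% they were 26.7% (8 of 30) and 25.0% (27 of 108), beside 25.1%.

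**Figure D3:**
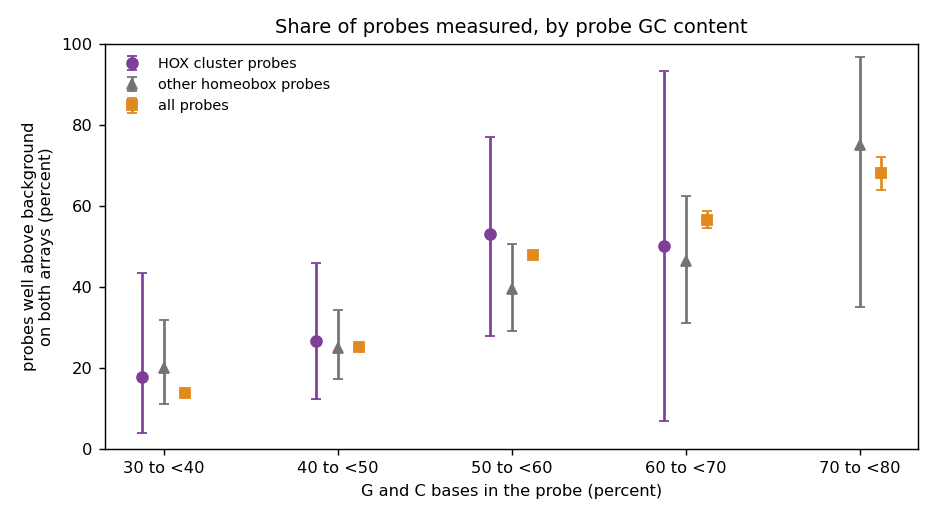
Share of probes well above background on both arrays (y axis, percent) by probe G and C content (x axis, percent), with exact 95% binomial intervals, for HOX, other homeobox and all probes; points of fewer than 4 probes are left out. The share rises with G and C in all probes, and the interval of each HOX point and of each other homeobox point holds the all-probe share.

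The difference between the arrays followed base composition as well. Over all measured probes the smoothed difference was -0.00 at 35% G and C, -0.12 at 45%, 0.04 at 55%, 0.20 at 65% and 0.39 at 75%. Homeobox probes lay near that trend above 40%: their median was -0.08 in the bin of 40 to 50% (35 probes; all probes -0.11), 0.02 at 50 to 60% (43 probes; 0.03), 0.18 at 60 to 70% (22 probes; 0.13) and 0.42 at 70 to 80% (6 probes; 0.35). In the bin of 30 to 40%, by contrast, the median of 16 homeobox probes was 0.28, beside -0.05 for all probes, and 11 of the 16 were higher. These medians are relative to the scaling and drop by 0.60 with spike-in scaling.

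Within single genes the order of the probes did not always follow the trend. LBX1 differed by 0.32 at its probe with 86.7% G and C, by -0.34 at that with 55% and by 0.09 at that with 45%. TGIF2 and DLX5, with 55% and 41.7%, kept differences of 1.09 and 1.17 after the trend was subtracted, and SHOX2 (41.7%) then reached 1.03. For PHOX2A the mean over 3 probes was 0.48 after that step. Of 21 pairs of probes of one gene that share fewer than 20 bases, 14 had the same sign. The pairs are not independent, since PHOX2A and LBX1, with 3 measured probes each, gave several. A pair of LBX1 with the same sign shares 19 bases.

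**Figure D4:**
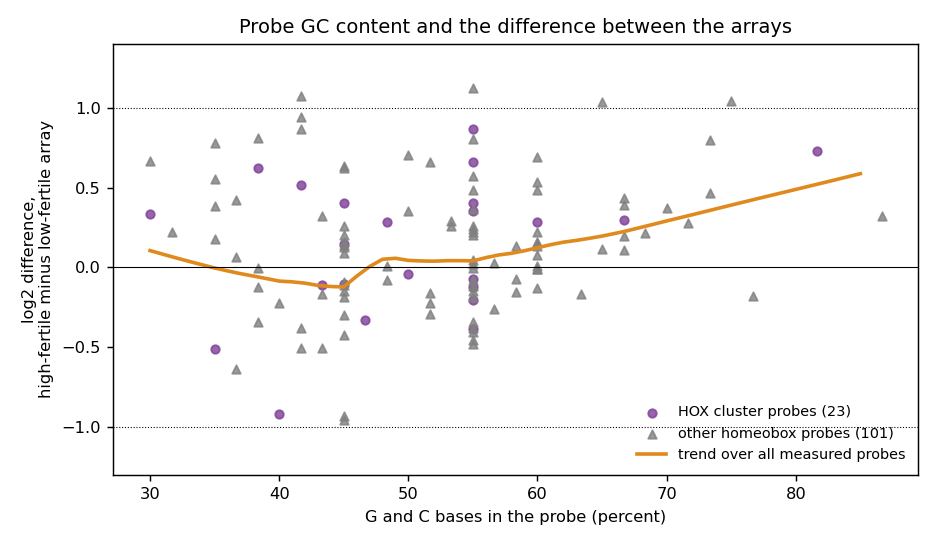
Log2 difference (y axis, high-fertile minus low-fertile array) of each homeobox probe measured on both arrays against its share of G and C (x axis, percent), with HOX probes as circles and other homeobox probes as triangles. The orange line is the trend over all 14154 measured probes, which rises to 0.39 at 75%; with spike-in scaling points and line would lie 0.60 lower.

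Among regulators of HOX genes, the Polycomb list had 31 genes on the array, including KDM6A, a demethylase that removes the Polycomb mark and was not measured. Of the 31 genes 16 were measured, 8 higher and 8 lower (median -0.01). JARID2, an accessory subunit of Polycomb repressive complex 2, was the only one past 2-fold, with 38.4 on the high-fertile array against 102.9 on the low-fertile one (-1.09), beside 2.44% of all genes lower by 2-fold. CBX6, a chromobox subunit, differed by 0.74 and RYBP, a subunit of complex 1, by -0.68. Only 3 of 12 Trithorax genes were measured, MEN1 (0.41), CXXC1 (0.25) and MLLT3 (0.15). Of 21 genes of retinoic acid signalling 11 were measured, 6 higher and 5 lower (median 0.10), from RDH10, a retinol dehydrogenase, at -0.87 to LRAT, which esterifies retinol, at 0.76.

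For the labelled cell type 18 genes of spermatozoa and late spermatids were looked up, of which 11 were measured on both arrays. They had 6 higher and 5 lower members (median 0.05), of which 2 were higher and 1 lower by 2-fold, beside 1.88% and 2.44% of all genes. PRM1, a protamine, differed by -1.10, and TNP2, a transition protein, and ACTL7B, a spermatid actin, by 1.22 and 1.19, while PLCZ1, the sperm phospholipase that activates the egg, differed by -0.89 and TNP1 by -0.03. PRM2, AKAP4, AKAP3, SPATA18, HSPA1L, TSSK6 and SPACA1 were not measured. Markers of other cells were measured for 6 of 9 leukocyte genes (median difference 0.08, from -0.51 for PTPRC to 0.61 for ITGB2), 2 of 6 epithelial genes (KRT8 and KRT14), 6 of 6 testis somatic genes on the array (-0.32 to 0.29) and 1 of 5 genes of epididymis and accessory glands. On the high-fertile array the measured sperm genes had processed signals from 24.6 (ODF2) to 319 (ODF1), with 81.6 for PRM1. The measured leukocyte genes ran from 43.5 (CD14) to 794 (LYZ) there, with 539 for PTPRC. On the low-fertile array PRM1 had 219, ODF1 338, LYZ 789 and PTPRC 960. Each gene has its own probes, so such signals do not rank the genes. These counts, signals and differences cannot verify the cell type, and the part of other cells in the homeobox values was not tested.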

How the data were processed

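The authors deposited 2 scanner tables, 1 per fertility group, and a table of normalized values. Per the file headers, the tables hold spot intensities of 1-colour scans from Agilent Feature Extraction 11.5.1.1, whose processed signal is corrected for background and for trends across the array. Probe positions are on build HGSC Btau_3.1. How the arrays were normalized to each other is not given in the sources used here. The values the authors deposited as normalized are log2 and equalled the log2 processed signal plus 1 constant per array (within 0.01 for 98.6% of probes on each; column medians -1.43 for high-fertile, -1.37 for low-fertile). Per the labels' protocols, RNA was primed with oligo-dT, which reads transcripts from their 3′ end, and copied into Cy3-labelled cRNA.

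From the processed signal, log2 was taken per spot, controls and outlier spots were dropped, spots of a probe averaged and each array scaled on its 75th percentile over 14154 probes well above background on both arrays. For each gene the differences of its probes measured on both arrays were averaged. The lowest signals called well above background were 22.6 (high-fertile) and 30.3 (low-fertile). They stand for the dim side of bounds ("at least N-fold") unless the dim probe's own signal was higher. On each array 1 of 308 negative control spots was called above background, and no spot was saturated. The number of arrays limits the precision. The trend on base composition was a lowess fit (fraction 0.3, statsmodels 0.14.6) over all measured probes. A spot lay in a patch where at least 8 of the spots around it (window 5 by 5) differed 2-fold in 1 direction. The computation was tested on simulated data.

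Member probes were named through accessions in a RefSeq gene table for ARS-UCD2.0 (245), symbols (32), or the description or gene ID (101), and 4 kept the file's name. Members, gene lists and alternatives were chosen with earlier results of these data known. Named were all measured HOX genes, members past 2-fold, the highest and lowest of each class and a list of well-known homeobox genes. Further names were picked with their values in view. SIX4, RHOXF2, HOMEZ and CERS2 of that list had no probe found by the rule, and a few genes are not reported here. Alternatives were normexp background correction (limma 3.58.1, R 4.3.3, offset 50), quantile, median, all-probe percentile and spike-in scaling, the deposited log2 values, no or a stricter filter (4 times the lowest signal above background), the brightest probe, the subtracted trend, no patch spots and a narrower membership.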

Additional observations from a re-analysis of the deposited data

How the results depend on the processing

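No paired analysis was possible because each fertility group had 1 array and no result came from a test. The count of homeobox genes at least 2-fold higher on the high-fertile array was 2, and 0 with normexp, 1 with quantile normalization, 4 of 207 with no filter and 0 with spike-in scaling, where the shares of all genes were 0.63%, 1.65%, 2.44% and 0.293%. With median scaling, the all-probe percentile, the deposited log2 values, the brightest probe and the subtracted trend it was 3 of 99. The shares of all genes in these settings were, in that order, 2.29%, 2.54%, 2.55%, 2.17% and 1.72%. The count lower by 2-fold was 0, and 10 of 207 with no filter (5.47% of all genes) and 8 of 99 with spike-in scaling (15.3% of all genes). Spike-in scaling (7 probes) lowered the median of all genes to -0.60. It gave medians of -0.46 for homeobox, -0.31 for HOX and -0.46 for other homeobox genes, a constant taken from every gene, so the distance of the homeobox median from that of all genes is the same by construction. It also moved the number of genes past a 2-fold bound on 1 array only to 8, against 2, and leaving out patch spots moved it to 1, without HOXA4. TGIF2 changed sign with no filter (-0.11, the mean with its 3 dim probes), and fell under 2-fold with normexp (0.65), as did DLX5 (0.88, and 0.94 with quantile normalization). The gap between HOX and other homeobox medians ran from 0.03 with the stricter filter to 0.21 with quantile normalization. With median, all-probe percentile and spike-in scaling and the deposited log2 values it was 0.16 by construction, because a constant per array cannot change it. The share of probes measured on both arrays was 12.9% for HOX and 12.2% for other homeobox genes with the stricter filter. By bins of G and C it was 17.6% (30 to 40%) and 52.9% (50 to 60%) for HOX, and 20%, 25%, 39.5%, 46.5% and 75% from 30 to 80% for the others. Of 50 named genes with a value, 18 moved by over the SD between spots (0.28) with no filter, besides TGIF2, and 9 with normexp. Depth cannot be counted on arrays, and only 43 of the 99 genes passed the stricter filter.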

Other observations

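Of the homeobox probes 16 share at least 16 bases in a row with a probe of another homeobox gene, 10 of which were measured on both arrays, and 0 of the genes past 2-fold are among them. The members without a gene symbol had differences of -0.50, -0.00 and 0.42, and 1 was seen on the low-fertile array only. Of all measured genes 49.9% were higher both with and without the trend on base composition subtracted, whereas of the homeobox genes 63.6% were higher before and 55 of 99 after that step.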
